A study of Mus musculus with 35 samples.

Results

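ChIP-seq of the mouse retina was read at 10 genes that encode subunits of the BAF complex: the ATPases Smarca4 (Brg1) and Smarca2 (Brm), the core subunits Smarcb1, Smarcc1 and Smarcc2, the DNA-binding subunit Arid1a, and the exchanged subunits Actl6a, Phf10, Actl6b and Dpf1. The genes were chosen by name and are 10 of 12847 coding genes whose start could be placed on mm9, the genome build of the deposited peak lists, out of 17274 coding genes with a listed start. For each gene the peaks within 2 kb of the start were taken from every list, and the H3K27Ac and Brg1 peaks were also taken from the gene and 20 kb on each side.

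BAF complexes, the mammalian SWI/SNF remodellers, use the energy of ATP to move nucleosomes and open DNA to other factors. Each complex holds 1 ATPase, Brg1 or Brm, around a core of Smarcb1 and Smarcc subunits. When neural progenitors leave the cell cycle, the actin-related subunit Actl6a (BAF53a) is exchanged for Actl6b (BAF53b), and Phf10 (BAF45a) for Dpf1 (BAF45b) and its relatives. H3K4me3 marks promoters, H3K27Ac marks active promoters and enhancers, and H3K27me3 is laid down by the Polycomb complex PRC2 at repressed genes.

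Brg1 itself was measured with an antibody to FLAG in 1 P0 library of Brg1-FLAG knock-in retinae (BRG-FLAG), in which the animal's own Brg1 gene carries the tag. Wild-type retinae gave 2 libraries each for H3K27Ac, H3K4me3 and H3K27me3 at P0, P14 and P21. At P12, wild-type retinae gave 1 library for H3K27Ac, 1 for H3K4me3 and 2 for H3K27me3. Brg1-deficient P12 retinae (BRG1 -/-) gave 2 libraries for H3K27Ac, 1 for H3K4me3 and 1 for H3K27me3. In the study's Brg1-deficient mice, Chx10-Cre deletes a floxed Brg1 in retinal progenitor cells. This Cre is active in a mosaic, so wild-type stripes of retina remain and the deleted share differs between mice. Small eyes and disturbed layers were seen only in retinae with high Cre expression. The study states that mice with small eyes were preferred for its ChIP-seq, to lessen the share of wild-type cells. The background strain is not given in the sources used here, and the study calls the histone libraries of a stage biological duplicates, and how many animals went into each is not given in the sources used here. All p-values measure the spread between these libraries. The retina holds many cell types, and a change in the number of cells that carry a mark cannot be told apart from a change in the amount of mark per cell.

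Read depth is unknown from peak lists. Each list held 17433 to 50005 peaks for H3K27Ac, 18534 to 24124 for H3K4me3, 50861 for Brg1 and 12188 to 30996 islands for H3K27me3. The H3K27Ac lists were short in replicate 1 of P0 (17588), of P14 (17433) and of P21 (18718), while replicate 2 of P14 and of P21 held 50005 and 45833. Of 8 retina genes listed as markers, 3 had a placed start (Otx2, Pax6 and Six6), and all 3 had an H3K4me3 peak in all 8 libraries. Their summed H3K4me3 height was 46.1 to 112, and 2 or 3 of them had an H3K27Ac peak in each library. No H3K4me3 or H3K27Ac peak lay at the starts of Rpe65 and Best1 (pigment epithelium), Cryaa and Cryba1 (lens) or Ptprc (blood), whereas Mitf, which the pigment epithelium also uses, had an H3K4me3 peak in every library and so had Bfsp1, a lens gene. At the other placed markers, Cd34 (vessel) had an H3K4me3 peak in 7 libraries (at most 9.93) and Acta1 (muscle) in 6 (at most 20.5), both with no H3K27Ac, Apoa1 (liver) had H3K4me3 in 7 and H3K27Ac in 5, and Alb (liver) had neither. The summed H3K27Ac height of the 3 placed pigment epithelium genes was 0 to 7.60 per library and that of the 3 lens genes 0 to 7.07.

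Promoter sequences of the exchanged subunits and of Smarca2 are shown because the results turn on these 5 genes. Each is the 250 bases before the start, 5′ to 3′ on the strand of the gene, from RefSeq on GRCm38.p6, a different build from that of the peaks. Capitals mark the GC box (GGGCGG or its complement CCGCCC) and the CCAAT box (CCAAT or its complement ATTGG).
Actl6a (chr3:32708296-32708545, + strand): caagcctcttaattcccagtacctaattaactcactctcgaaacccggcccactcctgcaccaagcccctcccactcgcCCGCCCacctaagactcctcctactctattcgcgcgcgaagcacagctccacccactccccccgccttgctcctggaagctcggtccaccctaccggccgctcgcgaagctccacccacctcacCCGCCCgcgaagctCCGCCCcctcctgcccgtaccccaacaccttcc
Phf10 (chr17:14961261-14961510, - strand): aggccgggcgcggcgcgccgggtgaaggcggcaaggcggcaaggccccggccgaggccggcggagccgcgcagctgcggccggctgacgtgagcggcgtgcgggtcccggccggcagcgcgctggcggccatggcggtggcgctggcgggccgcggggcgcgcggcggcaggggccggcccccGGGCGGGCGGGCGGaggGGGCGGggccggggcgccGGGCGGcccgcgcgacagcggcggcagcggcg
Actl6b (chr5:137553296-137553545, + strand): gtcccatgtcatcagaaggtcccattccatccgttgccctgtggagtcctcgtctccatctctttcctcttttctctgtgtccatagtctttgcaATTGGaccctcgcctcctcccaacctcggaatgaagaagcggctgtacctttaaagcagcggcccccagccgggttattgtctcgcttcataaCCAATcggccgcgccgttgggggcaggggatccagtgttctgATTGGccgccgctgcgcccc
Dpf1 (chr7:29303755-29304004, + strand): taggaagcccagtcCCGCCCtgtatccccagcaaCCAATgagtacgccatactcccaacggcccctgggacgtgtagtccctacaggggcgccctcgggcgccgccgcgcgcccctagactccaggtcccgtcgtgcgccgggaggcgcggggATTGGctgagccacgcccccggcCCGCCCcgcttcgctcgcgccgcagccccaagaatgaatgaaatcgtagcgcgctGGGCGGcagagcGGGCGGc
Smarca2 (chr19:26604910-26605159, + strand): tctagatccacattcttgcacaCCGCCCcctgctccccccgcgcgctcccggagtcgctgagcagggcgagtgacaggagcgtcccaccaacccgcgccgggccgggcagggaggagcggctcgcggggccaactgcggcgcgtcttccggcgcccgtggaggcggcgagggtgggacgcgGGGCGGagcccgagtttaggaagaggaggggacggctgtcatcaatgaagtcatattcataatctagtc
The CCAAT box was present in 2 of the 10 promoters, those of Actl6b (3 matches) and Dpf1 (2 matches). This is below the 36.0% of the 12847 promoters of the same length that hold it on either strand. The GC box was present in 8 of the 10 genes against 50.3% of all promoters, and was absent from Actl6b and Smarcc2. Phf10 had 5 GC boxes, of which some overlap each other, Dpf1 4, Actl6a 3 and Smarca2 2. The promoters held 15 (Actl6b) to 51 (Phf10) CpG dinucleotides each, against a median of 13 over all promoters. The E2F cores TTTCCCGC and TTTGGCGC (2.04% of promoters), TATAAA (8.80%), the homeodomain core GGATTA (5.39%), the NRF1 palindrome (1.28%) and the E-box CACGTG (7.55%), all searched on both strands, were in none of the 10. These are matches of letters in a 250-base window only.

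Brg1 lay at the starts of these genes, as it did at most coding-gene starts. All 10 genes had a Brg1 peak within 2 kb of the start in P0 retina, where 64.8% of the 12847 starts had one. All 10 also carried H3K4me3, and the share of Brg1 among starts with H3K4me3 was not counted. All heights given here are the fold enrichment over background at the peak summit, as deposited. The Brg1 height at the start was 10.1 at Smarcc2, 9.84 at Arid1a and 9.70 at Smarcc1, and higher there than at the other 7 genes. It was 7.59 at Dpf1, 6.78 at Smarca4, 6.51 at Smarca2, 6.47 at Actl6b, 6.08 at Actl6a, 5.57 at Smarcb1 and 5.34 at Phf10. The median over all starts with a Brg1 peak was 5.89, so 8 of the 10 genes were above it. There is 1 Brg1 library, so these values have no replicate error.

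The Brg1 summits differed in place. At Smarca4 the summit was 581 bp and at Smarcc2 373 bp upstream of the start. At Smarcc1 the summit was 11 bp upstream of the start (peak chr9:110034320-110035709, mm9). At Actl6a it was 328 bp into the gene (chr3:32607401-32608596), at Phf10 362 bp (chr17:15097474-15097950), at Dpf1 428 bp (chr7:30089014-30090298) and at Actl6b 495 bp (chr5:137994447-137995086). At Smarca2, 3 separate Brg1 peaks lay within 2 kb of the start and the highest had its summit 2505 bp into the gene (chr19:26681394-26682699). At Arid1a the peak that reached the 2 kb window had its summit 2031 bp into the gene. Another Brg1 peak of Arid1a, with its summit 3.93 kb into the gene, had a height of 16.6, the highest in any of the 10 genes. As placed, the summits at the starts lay on both sides of the start. The shifts that placed a start equally well spanned 800 bp at Actl6a and 680 bp at Smarca4 and Smarcc1. They spanned 520 bp at Smarcc2 and 400 bp at Phf10 and Actl6b. Distances smaller than these spans, and the side of the start on which such a summit lay, are uncertain.

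Beyond the starts, Brg1 peaks were spread unevenly. The 10 genes with their flanks, 968.1 kb in all, held 79 Brg1 peaks, of which 16 were at starts, 25 elsewhere in the genes and 38 in the flanks. Smarcc1 held 20, with the highest (12.1) in the flank past the end of the gene, 112.9 kb from the start. Smarcb1, Smarcc2 and Dpf1 held 12 each, Smarca2 10 and Arid1a 6. Of the 12, 11 at Smarcb1 and 9 at Smarcc2 lay in the flanks and the rest at the start. The flanks of Smarcb1 also hold the starts of Derl3, Mmp11, Chchd10 and Gm867, and those of Smarcc2 the starts of Myl6 and Myl6b. Actl6b held 3, Smarca4 2, and Actl6a and Phf10 only the 1 at the start. Per 100 kb of gene and flanks, the count ran from 1.56 (Smarca4), 1.71 (Actl6a) and 1.78 (Phf10) through 5.34 (Actl6b) to 13.5 (Smarcc1), 16.8 (Smarcc2), 18.5 (Smarcb1) and 22.4 (Dpf1).

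H3K4me3 was present at every gene of the set and at every stage. All 10 starts had an H3K4me3 peak in each of the 8 libraries, as had 70.4% of the 12847 starts. The starts were placed with the wild-type P0 H3K4me3 peaks of neighbouring genes, so P0 peaks at starts are partly given by the method. The peaks at the start of Arid1a covered 5469 to 7518 bp and those of Smarca2 4065 to 4954 bp, whereas those of Actl6b covered 1190 to 1588 bp and those of Phf10 818 to 1314 bp.

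**Figure D1:**
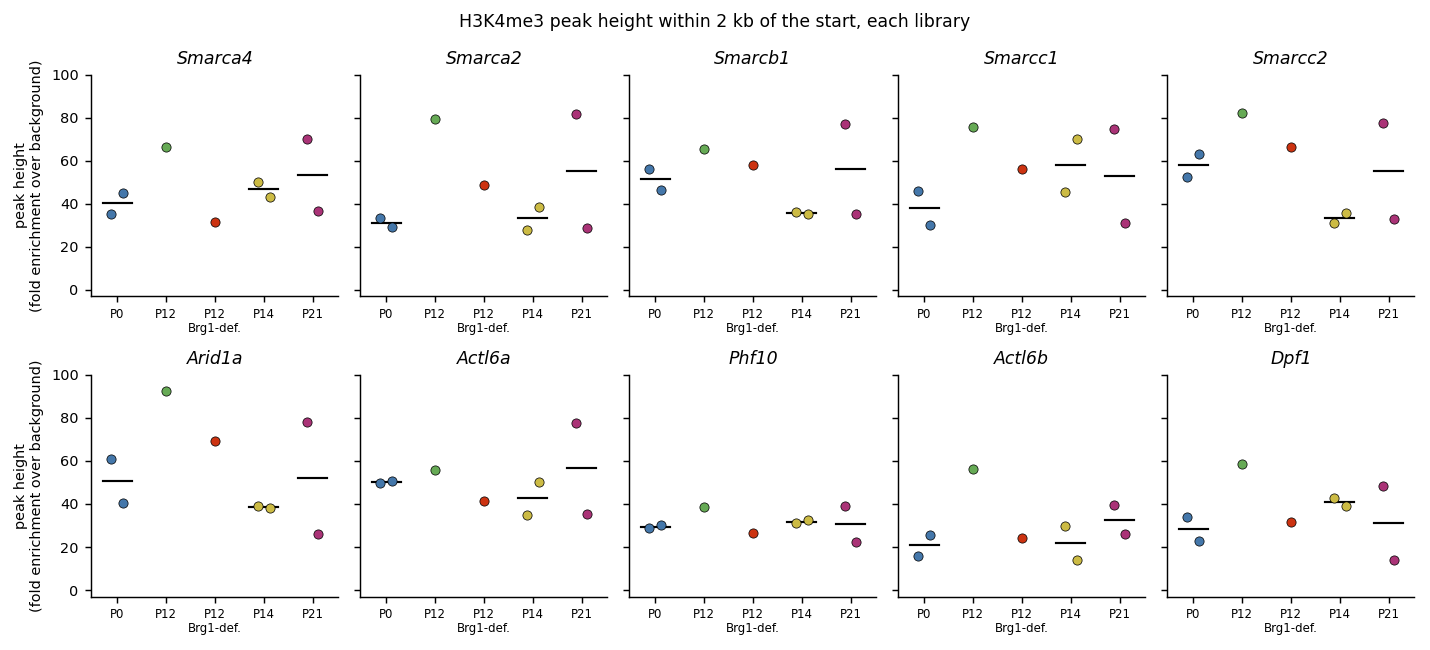
H3K4me3 peak height (fold enrichment over background, as deposited, linear axis) within 2 kb of the start of each of the 10 genes, by stage and genotype; each point is 1 library and each bar the mean of 2. All 10 genes have a peak in all 8 libraries, and the 2 P21 libraries lie far apart at most genes (81.9 and 28.5 at Smarca2).

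The genes of both ATPases carried H3K4me3 at every stage. Smarca4 had heights of 35.1 and 45.2 at P0, 50.2 and 43.2 at P14 and 70.2 and 36.5 at P21. Smarca2 had 33.2 and 29.2 at P0, 27.8 and 38.6 at P14 and 81.9 and 28.5 at P21. The spread between the 2 P21 libraries was wider than any step between stages for both genes, and was shared by all starts: the median height over 9057 starts with a peak in all 6 wild-type libraries of P0, P14 and P21 was 63.9 in P21 replicate 1 and 24.1 in replicate 2. Heights were therefore scaled on these medians before they were tested. On the scaled values Smarca2 was higher in both P21 libraries than in both P0 libraries (log2 difference 0.51 ± 0.31 SE, n = 2 and 2, limma, adjusted p = 0.39).

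Among the core subunits, Smarcc1 had H3K4me3 heights of 46.0 and 30.0 at P0, 45.5 and 70.3 at P14 and 74.8 and 31.0 at P21. Smarcc2 had 52.4 and 63.3 at P0, 31.1 and 35.6 at P14 and 77.5 and 33.0 at P21. These paralogous scaffold subunits lay in opposite order: after scaling, Smarcc1 was higher in both P14 libraries than in both of P0 (log2 difference 0.65 ± 0.30 SE, limma adjusted p = 0.26), and Smarcc2 lower in both (-0.54 ± 0.29 SE, adjusted p = 0.38). Neither difference passed the test. Smarcb1, at 56.3 and 46.5 at P0, 36.2 and 35.3 at P14 and 77.0 and 35.0 at P21, gave log2 differences of -0.31 for P14 against P0 and 0.00038 for P21 against P0. Arid1a had 60.9 and 40.3 at P0, 39.1 and 37.99 at P14 and 78.3 and 25.9 at P21, and its scaled groups overlapped at every stage.

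H3K4me3 was tested with limma across the 9625 starts that had a peak in at least 2 of the 6 libraries, on log2 of the scaled height plus a pseudocount, a scale that understates differences of low peaks. None of the 10 genes passed at an adjusted p of 0.05. Of all starts tested, 5.03% were called for P14 against P0, 10.3% for P21 against P0 and 0.0208% for P21 against P14. At an unadjusted p under 0.05, 1 of the 10 genes passed for P14 against P0 (Smarcc1, against 15.4% of all starts), 0 for P21 against P0 (19.7%) and 1 for P21 against P14 (Dpf1, 7.72%). Scaled heights of the stages did not overlap for 6 genes at P14 and P0: Smarca4, Smarcc1, Phf10 and Dpf1 were higher at P14 (as were 18.3% of all starts) and Smarcb1 and Smarcc2 lower (25%). For P21 against P0, Smarca2 was higher without overlap (14.5% of starts) and Smarcc2 lower (30.9%). The median log2 difference for P21 against P0 was 0.02 over the 10 genes and -0.08 over all starts tested.

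H3K27Ac peaks were called less evenly at the 10 starts. Smarca4, Smarcb1, Smarcc1, Smarcc2, Arid1a and Actl6a had an H3K27Ac peak in all 9 libraries, as had 34.9% of the 12847 starts. Smarca2, Actl6b, Phf10 and Dpf1 each had none in 1 to 3 libraries. The missing peaks all fell in lists of 17433 to 18718 peaks, the 3 shortest, and the part of list length in them was not tested.

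**Figure D2:**
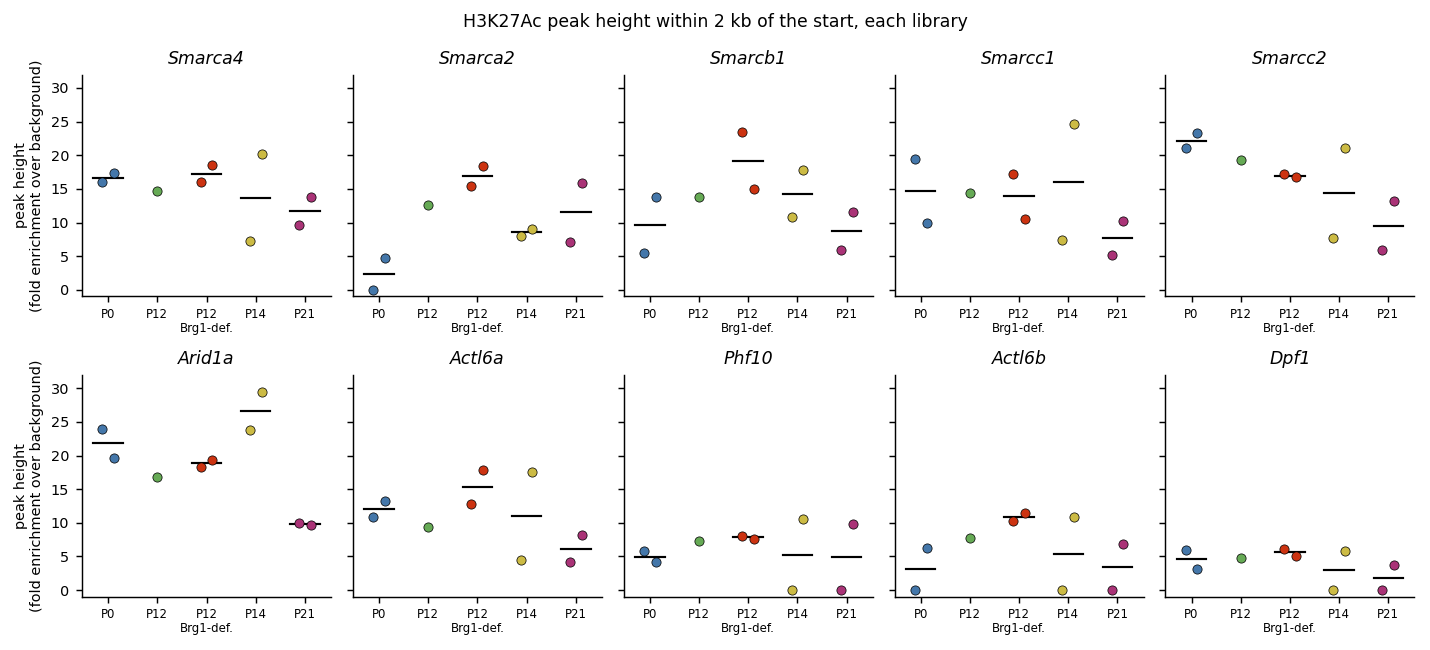
H3K27Ac peak height (fold enrichment over background, as deposited, linear axis) within 2 kb of the start of each of the 10 genes, by stage and genotype; each point is 1 library, a value of 0 means that no peak was called, and each bar is the mean of the 2 libraries where there are 2. Smarca2 is at 0 and 4.70 at P0 and between 7.10 and 15.9 in the wild-type libraries of P12 and later.

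Arid1a, the subunit that defines the canonical BAF complex, had H3K27Ac heights of 24.0 and 19.6 at P0, 23.7 and 29.5 at P14 and 9.91 and 9.68 at P21. Smarcc2 had 21.03 and 23.3 at P0, 7.69 and 21.05 at P14 and 5.92 and 13.1 at P21. Smarcc1 had 19.4 and 9.91 at P0, 7.38 and 24.6 at P14 and 5.22 and 10.2 at P21. For all 3 the P21 heights as deposited were low, but the library medians over 4487 starts shared by all 6 libraries were also low at P21 (5.78 and 10.6, against 10.8 and 11.6 at P0). After scaling, Smarcc2 was lower in both P14 and both P21 libraries than in both of P0, with log2 differences of -0.76 ± 0.36 SE (limma adjusted p = 0.56) and -0.67 ± 0.36 SE (adjusted p = 0.42). The differences of Smarcc1 (-0.33) and Arid1a (-0.52) for P21 against P0 had intervals that included 0. The highest Arid1a peak within 2 kb was not the same peak in every library. With peaks of the 6 libraries merged into regions, 2 regions lay at its start. The one centred 3.17 kb into the gene had the heights above except in P21 replicate 1, where it had 6.12. Its difference for P21 against P0 was -0.92 ± 0.29 SE (interval -1.58 to -0.27, limma adjusted p = 0.093). That of the other region was -0.25 ± 0.47 SE, with an interval that included 0.

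Smarca4 had H3K27Ac heights of 16.004 and 17.4 at P0, 7.23 and 20.2 at P14 and 9.68 and 13.8 at P21, with a scaled difference of -0.01 ± 0.35 SE for P21 against P0 (95% interval -0.71 to 0.68). Smarcb1 had 5.40 and 13.8 at P0, 10.7 and 17.8 at P14 and 5.94 and 11.6 at P21, with a difference of 0.31 ± 0.33 SE. Both genes stayed acetylated through P21, and neither difference passed the test.

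Smarca2, which encodes the alternative ATPase Brm, had the largest H3K27Ac difference of the 10 genes. No peak was called within 2 kb of its start in P0 replicate 1, and the height was 4.70 in P0 replicate 2. It was 12.6 at P12 in wild-type retina, 8.03 and 9.10 at P14, and 7.10 and 15.9 at P21. All 5 later wild-type heights were above both P0 heights, on the deposited values and, for P14 and P21, after scaling too. The log2 difference on the scaled heights was 1.101 ± 0.60 SE for P14 against P0 (n = 2 and 2, limma adjusted p = 0.68) and 1.81 ± 0.60 SE for P21 against P0 (95% interval 0.63 to 2.99, adjusted p = 0.090), so it did not pass the adjusted threshold. Under 16 alternative settings the difference for P21 stayed between 1.21 and 2.71 and the adjusted p lay between 0.019 and 0.87. It passed when replicate 2 of P21 was left out (limma adjusted p = 0.019), and not when any other single library was. In P0 replicate 1 a peak of height 3.96 lay just beyond the 2 kb limit, and the merged region that includes it is given with the other regions of the gene.

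In the same test of H3K27Ac across 8859 starts, none of the 10 genes passed between any stages by limma, while 1.15% of the starts were called for P14 against P0, 2.08% for P21 against P0 and 0.0564% for P21 against P14. At an unadjusted p under 0.05, 1 gene passed for P14 against P0 (Smarcc2, against 7.81% of all starts), 1 for P21 against P0 (Smarca2, 12.5%) and 0 for P21 against P14 (3.59%). Smarca2 was the 1 gene of the 10 that was higher in both P21 than in both P0 libraries, and 15.7% of all starts were so. Smarcc2 and Actl6a were lower in both, as were 27.9% of all starts. For P14 against P0, Smarca2 was higher without overlap (15% of starts) and Smarca4, Smarcc2 and Actl6a were lower (29.2%). The median log2 difference for P21 against P0 was -0.30 over the 10 genes and -0.24 over all starts tested.

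**Figure D3:**
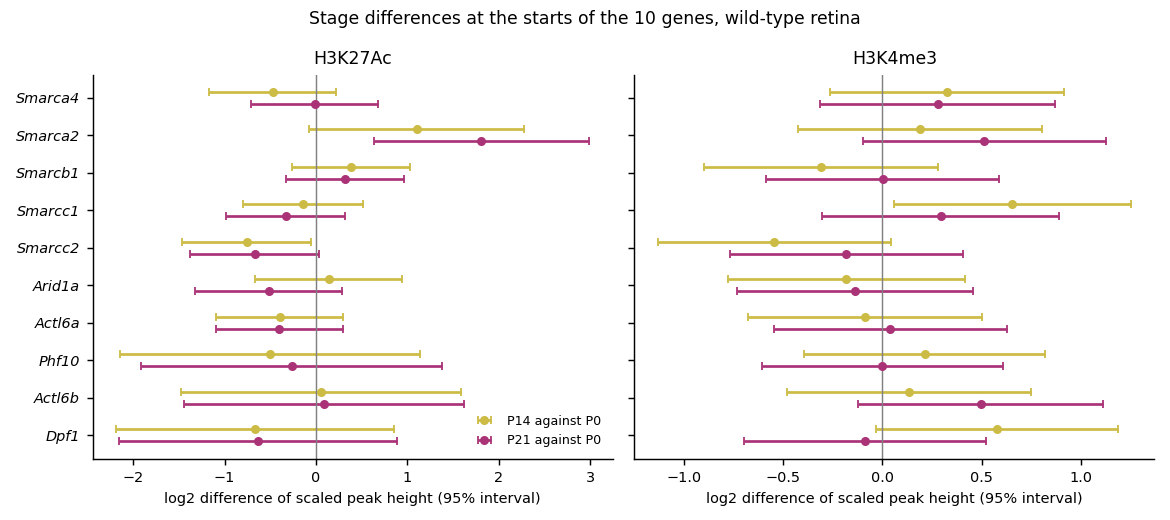
Log2 differences of scaled peak height at the starts of the 10 genes for P14 and P21 against P0 in wild-type retina, H3K27Ac on the left and H3K4me3 on the right; points are limma estimates from 2 libraries per stage and bars their 95% intervals, not adjusted for the number of starts. The interval for H3K27Ac at Smarca2, P21 against P0, runs from 0.63 to 2.99, whereas those of Phf10, Actl6b and Dpf1 are wide and include 0.

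The exchange of Actl6a for Actl6b was then followed in both active marks. Actl6a had H3K27Ac heights of 10.9 and 13.2 at P0, 4.51 and 17.6 at P14 and 4.11 and 8.13 at P21. Actl6b had no peak and 6.19 at P0, no peak and 10.8 at P14, and no peak and 6.83 at P21. The progenitor gene was higher than the neuronal gene within every one of the 9 H3K27Ac libraries, P21 included. The scaled difference for P21 against P0 was -0.40 ± 0.36 SE for Actl6a (limma adjusted p = 0.68) and 0.09 ± 0.78 SE for Actl6b (95% interval -1.45 to 1.62, adjusted p = 0.97). With an interval of this width, neither a gain nor a loss of H3K27Ac at Actl6b could be detected.

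In H3K4me3, Actl6a had heights of 49.7 and 50.7 at P0, 35.1 and 50.1 at P14 and 77.8 and 35.4 at P21. Actl6b had 15.7 and 25.8 at P0, 29.6 and 13.8 at P14 and 39.4 and 25.8 at P21. Within a library the ratio of Actl6b to Actl6a, which no scaling between libraries can move, was 0.32 and 0.51 at P0, 1.01 at P12, 0.84 and 0.28 at P14 and 0.51 and 0.73 at P21. The P14 values bracket those of P0, so the order of the stages is not resolved. The difference for P21 against P0 was 0.49 ± 0.31 SE for Actl6b (limma adjusted p = 0.42) and 0.04 ± 0.29 SE for Actl6a (adjusted p = 0.98).

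The exchange of Phf10 for Dpf1, both of which carry PHD fingers that read histone tails, gave the following. Phf10 had H3K27Ac heights of 5.75 and 4.13 at P0, 7.23 at P12, no peak and 10.5 at P14, and no peak and 9.88 at P21. Dpf1 had 5.99 and 3.13 at P0, 4.82 at P12, no peak and 5.88 at P14, and no peak and 3.71 at P21. The progenitor gene Phf10 was thus still acetylated at P21 in the longer list, and Dpf1 was the weakest of the 10 genes in both replicate 2 libraries of P14 and P21. Differences for P21 against P0 were -0.27 ± 0.84 SE and -0.64 ± 0.78 SE on the log2 scale (limma adjusted p = 0.91 and 0.73).

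H3K4me3 at Phf10 was 28.8 and 30.2 at P0, 31.1 and 32.5 at P14 and 39.2 and 22.5 at P21. At Dpf1 it was 34.0 and 22.9 at P0, 58.6 at P12, 42.6 and 39.2 at P14, and 48.4 and 14.1 at P21. The ratio of Dpf1 to Phf10 within a library was 1.18 and 0.76 at P0, 1.51 at P12, 1.37 and 1.21 at P14 and 1.24 and 0.63 at P21. On the scaled heights Dpf1 was higher at P14 than at P0 in both libraries (0.58 ± 0.31 SE, limma adjusted p = 0.37). On the same scale it was lower at P21 than at P14 in both, as were 23.5% of all starts (-0.67 ± 0.31 SE, limma adjusted p = 0.60). Neither passed the test.

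H3K27me3 divided the 10 genes. Smarca4, Smarcb1, Smarcc1, Smarcc2, Arid1a, Actl6a and Phf10 had no H3K27me3 island within 2 kb of the start in any of the 9 libraries, as had 53.7% of the 12847 starts. Smarca2, Actl6b and Dpf1 had an island there in both P0 libraries, as had 23.5% of all starts. These 3 genes also carried H3K4me3 in both P0 libraries, a pair of marks found together at 19.8% of all starts. Both neuronal subunit genes of the 10 were thus among the marked genes, and neither progenitor subunit gene was. Among the 12 other subunits read below, Dpf3, a relative of Dpf1, had an island in 1 of the 9 libraries. Ss18l1 had one in 0 and Smarcd1 in 8 libraries, and 3 genes of the 12 had one in both P0 libraries. A link of the mark to the exchange was not tested.

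The course of H3K27me3 differed between these 3 genes. At Dpf1 an island of 2199 to 8399 bp covered the start in all 9 libraries, as an island within 2 kb did at 14.2% of all starts. It measured 2799 and 2199 bp at P0 and 8399 and 7799 bp at P21, where it reached 7.71 kb into the gene. In replicate 2 of P0 and in the P12 and P14 libraries a second island began 3.72 to 4.32 kb into the gene. All islands in the gene and flanks summed to 2799 and 6197 bp at P0, 8198 and 6998 bp at P14 and 8399 and 7799 bp at P21. At P12 the sums were 6598 and 9197 bp in wild-type and 12597 bp in Brg1-deficient retina. At Actl6b an island covered the start in both P0 libraries (11199 and 15799 bp). Later, an island covered the start in replicate 2 of P21 (5999 bp), islands lay within 2 kb of it in replicate 2 of P14 and both wild-type P12 libraries, and none was called in replicate 1 of P14, replicate 1 of P21 or the Brg1-deficient P12 library.

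At Smarca2, islands lay on each side of the start in both P0 libraries, the nearer edge 1091 bp away in replicate 1 and 711 bp in replicate 2, and left the start itself uncovered. In P14 replicate 2 an island ended 1911 bp away. No island was within 2 kb in P14 replicate 1, in either P21 library or in any P12 library, and 4.62% of all starts shared the pattern of islands in both P0 and neither P21 library. Each library still had an island elsewhere in Smarca2 or its flanks. The islands of H3K27me3 have no height used here, the lists differ in length from 12188 to 30996 islands, with the fewest in P0 replicate 1, and the P12 libraries used an antibody labelled AB3 where the other stages used AB1. Island presence was therefore not tested between stages.

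**Figure D4:**
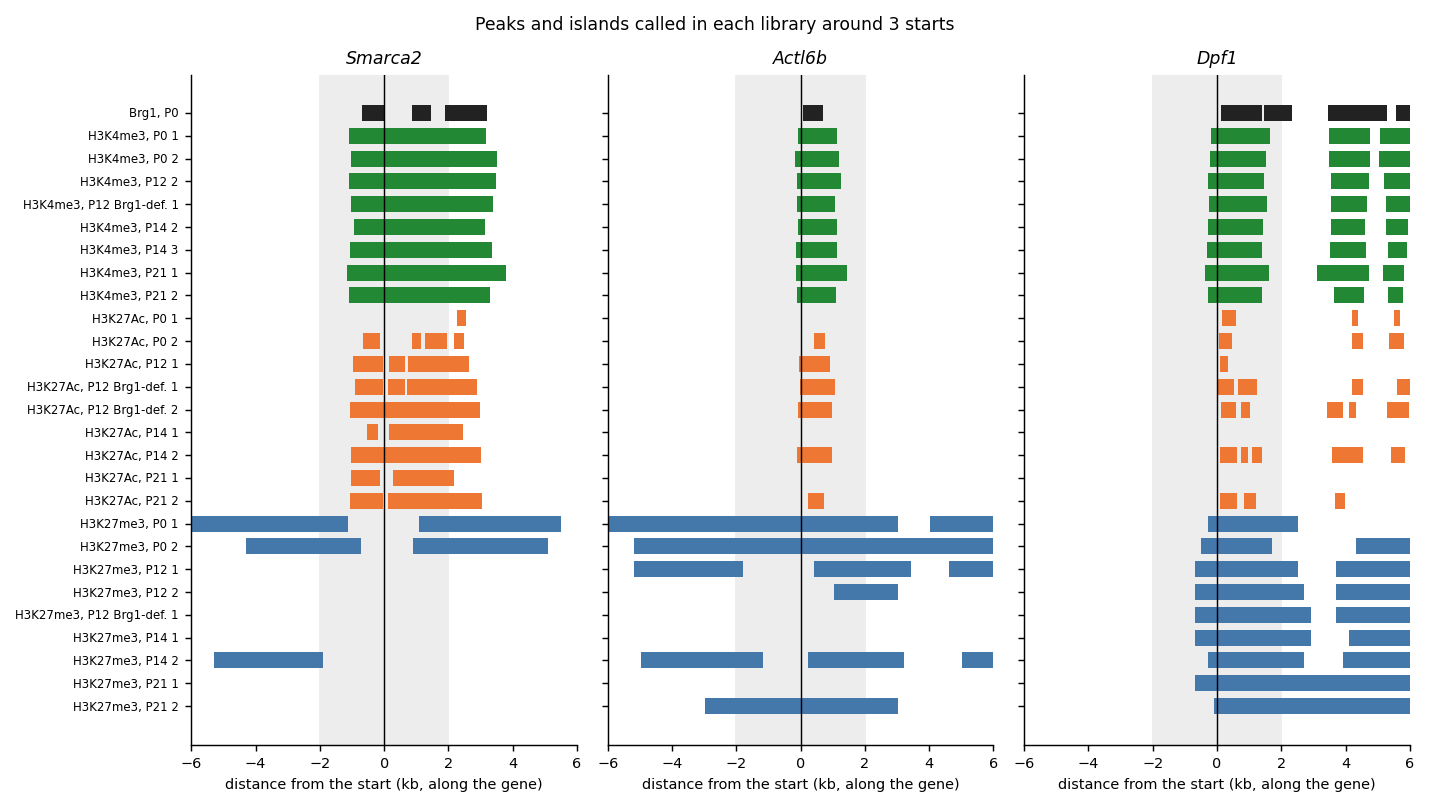
Positions of the called peaks and islands in each of the 26 histone libraries and the Brg1 library, from 6 kb before to 6 kb after the starts of Smarca2, Actl6b and Dpf1, along the direction of each gene; the grey band is the 2 kb on each side of the start, and the number after the stage is the replicate. At Smarca2 the P0 H3K27me3 islands stop 1091 and 711 bp from the start, while at Dpf1 an island covers the start in all 9 libraries.

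Loss of Brg1 was examined at P12. The H3K4me3 and H3K27Ac peaks at Smarca4 lie at its start and report nothing about the deleted part of the gene, so they do not check the deletion. H3K27Ac at Smarca4 was 14.7 in the wild-type library and 15.98 and 18.6 in the Brg1-deficient libraries. At Smarca2, the paralogue of the deleted ATPase, it was 12.6 in wild-type and 15.4 and 18.3 in Brg1-deficient retinae, and over all starts the deficient libraries had the higher medians (16.02 and 15.6, against 13.1). After scaling, the log2 difference was -0.03 ± 0.37 SE at Smarca4 and 0.12 ± 0.55 SE at Smarca2 (95% interval -1.01 to 1.25).

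Over the 10 genes the H3K27Ac difference between genotypes ran from -0.36 at Smarcc2 (17.2 and 16.7, against 19.2) to 0.31 at Actl6a (12.8 and 17.8, against 9.41). By limma none of the 10 genes and none of the 9103 starts tested were called (0%), with 1 wild-type library that was assumed to vary like the other groups. At an unadjusted p under 0.05, 0 of the 10 genes and 0.439% of all starts passed. The 95% interval ran from -0.80 to 0.74 at Smarca4 and from -1.78 to 2.07 at Actl6b. A difference of 1 on this log2(height + pseudocount) scale lies outside the first interval and inside the second. The pseudocount shrinks differences of height, so a 2-fold loss of the height itself is excluded at neither gene.

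For H3K4me3 there was 1 library per genotype at P12 and no test. Heights were lower in the Brg1-deficient library at all 10 genes as deposited, from 24.1 against 56.1 at Actl6b and 31.4 against 66.1 at Smarca4 to 58.0 against 65.4 at Smarcb1. After the deficient library was scaled by 1.48 to the median of the shared starts, the log2 differences ran from -0.56 at Actl6b, -0.45 at Smarca4 and -0.28 at Dpf1 to 0.35 at Smarcb1. None of the 10 genes differed by at least 2-fold, as 2.24% of 9574 starts did. On the heights as deposited, Actl6a was at 0.75, Actl6b at 0.43 and Smarca4 at 0.47 of the wild-type height.

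Beyond the starts, H3K27Ac peaks of the wild-type P0, P14 and P21 libraries were merged into regions. The 10 genes and their flanks held 96 regions, of which 62 had a peak in at least 2 of the 6 libraries and were tested, 56 overlapped a Brg1 peak and 17 had a peak in every library. By limma, 0 of the 62 were called in any comparison, against 0.555% of 33340 regions for P21 against P0 and 0% for P14 against P0 and for P21 against P14. At an unadjusted p under 0.05, 15 of the 62 passed for P21 against P0, of which 9 were higher at P21, with 27.2% of all regions passing. For P14 against P0 and for P21 against P14, 5 and 5 passed, against 16% and 4.99% of all regions. Which regions passed the adjusted threshold for P21 against P0 changed when single libraries were left out, in the 10 genes and over all regions alike.

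A total of 6 regions, chosen after their values were seen, show the range. The region at the start of Smarca2 (chr19:26678455-26682551, mm9) had heights of 3.96 and 4.70 at P0, 8.03 and 9.10 at P14 and 7.10 and 15.9 at P21, and overlapped 3 Brg1 peaks. Its log2 difference for P21 against P0 was 1.35 ± 0.41 SE (limma adjusted p = 0.093). When the test was limited to regions called in all 6 libraries, it passed (adjusted p = 0.0081). A second region, 143.0 kb into Smarca2 (chr19:26821421-26823555), had the opposite order, with 7.52 and 10.5 at P0, 3.71 and 9.89 at P14 and no peak and 3.71 at P21 (-1.61 ± 0.67 SE, adjusted p = 0.16).

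A region 14.5 kb upstream of Smarcb1 (chr10:75397920-75399413) had no peak and 3.07 at P0, 20.4 and 19.4 at P14 and 9.58 and 11.997 at P21. It had 2 Brg1 peaks at P0, and the nearest other placed start was that of Chchd10, 2.9 kb away. Its difference was 2.56 ± 0.53 SE for P14 against P0 (limma adjusted p = 0.13) and 2.32 ± 0.53 SE for P21 against P0 (adjusted p = 0.074). For P14 against P0 it passed without replicate 1 of P0 (adjusted p = 0.028), without replicate 2 of P0 (3.5e-05) and without replicate 1 of P21 (0.014).

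The regions picked here near the genes of the actin-related subunits had opposite orders of P0 and P21. Of the 7 regions of Actl6a, 3 were higher and 1 lower at P21 without overlap, and of the 5 of Actl6b, 0 and 1. A region 8.2 kb upstream of Actl6a (chr3:32598296-32599940), with no Brg1 peak, had no peak in either P0 library, none and 4.77 at P14 and 11.03 and 5.72 at P21 (2.60 ± 0.75 SE, limma adjusted p = 0.092). A region 20.9 kb upstream of Actl6b (chr5:137971707-137975243), with 3 Brg1 peaks and 0.7 kb from the start of Gnb2, had 18.5 and 14.4 at P0, 14.05 and 19.7 at P14 and 3.74 and 5.38 at P21 (-1.16 ± 0.33 SE, adjusted p = 0.092). In both regions the P21 heights did not overlap those of P0, while the P14 heights overlapped those of P0. A region 73.0 kb into Smarcc1 (chr9:110106739-110108737) had 6.52 and 8.23 at P0 and no peak in the 4 later libraries (-2.11 ± 0.62 SE, adjusted p = 0.092).

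**Figure D5:**
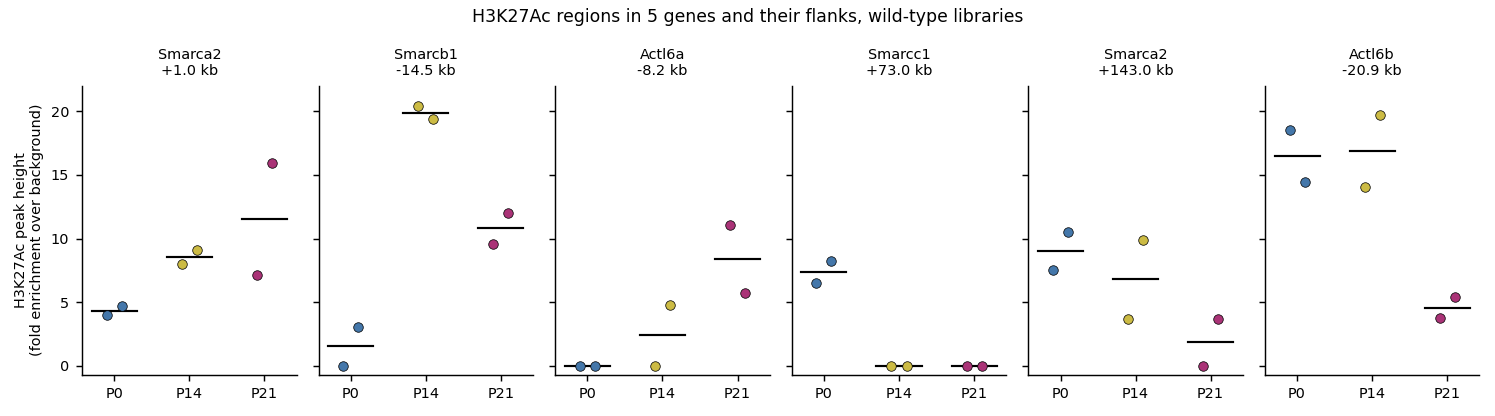
H3K27Ac peak height (fold enrichment over background, as deposited) in 6 merged regions, named by gene and by the distance of their middle from the start, in the wild-type libraries of P0, P14 and P21; each point is 1 library, 0 means no peak and each bar is the mean of 2. The region 14.5 kb upstream of Smarcb1 is at 0 and 3.07 at P0 and at 20.4 and 19.4 at P14, and that 20.9 kb upstream of Actl6b is at 18.5 and 14.4 at P0 and at 3.74 and 5.38 at P21.

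Other subunits of BAF and the related PBAF and ncBAF complexes were read in the same way. Of 21 listed, 12 had a placed start. All 12 had a Brg1 peak there at P0, 11 had an H3K4me3 peak and 7 an H3K27Ac peak in every library, 3 had an H3K27me3 island in both P0 libraries and 6 in none. The calls among them were Bcl11a and Bcl11b, zinc-finger proteins that bind DNA and join BAF, in H3K4me3 for P21 against P0, where 10.3% of all starts were called. Bcl11a had heights of 44.5 and 65.7 at P0, 27.3 and 23.6 at P14 and 23.3 and 12.01 at P21, and fell by 1.35 ± 0.30 SE on the log2 scale (limma adjusted p = 0.0011). Bcl11b had 32.3 and 46.5 at P0, 23.7 and 16.7 at P14 and 15.3 and 8.76 at P21, and fell by 1.27 ± 0.29 SE (adjusted p = 0.0014). The other 10 did not pass in either mark, and 6 of the 12 had an unadjusted p under 0.05 in H3K27Ac for P21 against P0, against 12.5% of all starts. Of these, Bcl11a, Bcl11b, Pbrm1 and Smarcd1 were lower at P21. Smarcd2 (1.41 ± 0.53 SE, limma adjusted p = 0.18) and Dpf3 (1.09 ± 0.40 SE, adjusted p = 0.16) were higher.

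Finally, the starts whose pattern was most like that of each exchanged subunit were sought by Pearson's r over the 14 wild-type H3K27Ac and H3K4me3 libraries, among 9268 starts. For Actl6a these were Tspyl1 (r = 0.89), Clpp (0.88) and Vps4b (0.88). For Phf10 they were Ift43 (0.97), Snx10 (0.96) and Gadd45g (0.96), for Actl6b Calr3 (0.95), 1700030K09Rik (0.95) and Nfkbid (0.94), and for Dpf1 Gcdh (0.95), D10Wsu102e (0.93) and Cfdp1 (0.93). Of the exchanged pairs, Phf10 and Dpf1 had r = 0.78 and Actl6a and Actl6b r = 0.15, where the median r of these 4 genes with all starts was 0.20 (Actl6a), 0.21 (Actl6b), 0.24 (Dpf1) and 0.27 (Phf10). The libraries share these starts' common differences in list length and enrichment, so the values are a description.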

How the data were processed

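The authors deposited 1 peak list per library on mm9, called on single libraries and not on pooled replicates. The labels name BWA 0.5.9-r26, Picard 1.65, MACS2 2.0.9, SICER 1.1 and bedtools 2.17.0, with no role or order. In the deposited lists of H3K27Ac, H3K4me3 and Brg1, column 7 is the fold enrichment of a peak summit over background, a ratio with no stated scaling between libraries. The authors also give −log10 p-values and −log10 q-values. The deposited H3K27me3 lists were used for the positions of islands, and their scores were not used. The 8 input libraries were not analysed here.

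Coding-gene starts of GRCm38.p6 were shifted by the local offset (genes within 5 Mb) that put most starts within 1 kb of wild-type P0 H3K4me3 peaks. The shift of each gene was then refined within 100 kb so that most of its 20 nearest other starts lay inside such peaks, with at least 8 inside and 1.5 times the next best shift. The refinement was added after the data were seen, because Actl6b was misplaced without it. For the 10 genes 12 to 19 of the 20 neighbours lay inside a peak, against at most 7 at any other shift. The start was the most upstream listed.

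Each start received the highest peak within 2 kb, or 0. Heights were scaled on the median of starts with a peak in every library and log2(height + pseudocount) was fitted with limma 3.58.1 in R 4.3.3 (trend and robust eBayes). As pseudocount served the lowest 5 percent point of all heights, 3.24 for H3K27Ac, 7.53 for H3K4me3, 3.45 for H3K27Ac with P12 and 2.08 for regions. Starts needed a peak in at least 2 libraries, and Benjamini-Hochberg adjustment at 0.05 ran over all starts or regions tested. For each mark the wild-type libraries of the 3 stages shared 1 fit, and the P12 genotypes were compared in a fit of all 9 H3K27Ac libraries. The fits were tested on simulated data. Tables were made in Python 3.11.15 (pandas 2.3.3, numpy 2.4.6) and drawn with matplotlib 3.10.9.

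The 10 genes, the list of other subunits and the markers were chosen with earlier results of these data known. Members were named by the gene list, their regions of largest difference after the values were seen, and the starts most like each exchanged subunit by rank of r (the first 3). Other filters, pseudocounts, distances, scalings and sets of samples were tried as alternatives. The highest height over all listed starts, the fits without the 2 shortest H3K27Ac lists and the unscaled P12 H3K4me3 comparison were added after the data were seen.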

Additional observations from a re-analysis of the deposited data

How the results depend on the processing

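Depth is unknown, and a weak peak needs a library of enough signal to be called, so a height of 0 is a limit of the list and not an absence of the mark. With 2 libraries per stage the counts of called starts moved with the processing. Of 1121 alternative values of single genes, 1119 kept their side of the threshold, the other 2 being H3K27Ac at Smarca2 for P21 against P0. The number of genes of the 10 called at their start stayed at 0 in every alternative but these 2. In the main fits the lowest limma adjusted p of the 10 genes was 0.090, and the next lowest 0.26. Some alternatives called 0 starts in all, so these counts do not measure how stable the values are. The causes of the changes were not tested.

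For H3K27Ac, P14 against P0, 102 starts were called, and 48 with a peak in every library, 11 without scaling, 0 without trend and robust eBayes, 0 with equal numbers of peaks, 211 with only the 2 stages in the fit and 0 without the 2 shortest lists. For P21 against P0, 184 were called, and under the same alternatives 102, 4, 0, 0, 40 and 0. For P21 against P14, 5 were called, and 0, 0, 0, 0, 2 and 0, with 1 at a pseudocount of 1, 2 without the filter and 1 within 1 kb. For H3K4me3, the 484 starts of P14 against P0 became 141 at a pseudocount of 1, 248 with a peak in every library, 126 without scaling and 196 without trend and robust eBayes, the 988 of P21 against P0 became 602, 650, 235 and 605, and the 2 of P21 against P14 became 0, 1, 1 and 1, with 1 within 1 kb. The 185 H3K27Ac regions of P21 against P0 became 0 at a pseudocount of 1, 0 without scaling and 0 without the 2 shortest lists, and with a peak in every library 2 regions of the 10 genes were called (Smarca2 start, adjusted p = 0.0081, and Actl6b, adjusted p = 0.045). With a peak in every library 238 regions in all were called for P21 against P0 and, for P14 against P0, 106 against 0. Without scaling, 1 gene of the 10 (Actl6b) differed at least 2-fold in H3K4me3 between the P12 genotypes on the log2(height + pseudocount) scale, and Smarca4 also did so in the ratio of the deposited heights.

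When 1 library was left out, the starts called ran from 0 to 196, 21 to 1357 and 0 to 677 for H3K27Ac in P14 against P0, P21 against P0 and P21 against P14, with 0 to 1 of the 10 genes called in the second and 0 in the others. For H3K4me3 they ran from 117 to 601, 321 to 1008 and 1 to 6, with 0 of the 10 genes. Regions ran from 0 to 725 (0 to 1 in the 10 genes), 0 to 6286 (0 to 10) and 0 to 0. The 10 were called without replicate 2 of P14.

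Whether replicate numbers pair the samples is not given in the sources used here. For H3K27Ac the deviations of same-numbered libraries had r = 0.014 (P0 and P14), 0.008 (P0 and P21) and 0.25 (P14 and P21). For H3K4me3 at P0 and P21 r was 0.17. The 3 shortest H3K27Ac lists were all replicate 1, so a structure shared by replicate number was not excluded. With the replicate block, 189, 460 and 0 H3K27Ac starts were called, with 1 of the 10 genes (Smarca2, limma adjusted p = 0.048) in P21 against P0, and 1363 H3K4me3 starts in P21 against P0. The replicate block gave 2764, 9015 and 410 regions, with 2, 14 and 1 in the 10 genes. For the H3K4me3 comparisons with P14 no block could be fitted, because its libraries are replicates 2 and 3, which share fewer than 2 numbers with the other stages.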
